A study of Homo sapiens with 6 samples.

Results

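The library of MRCKα KO cells was set directly against the library of MRCKβ KO cells, both made from MDA-MB-231, a human triple-negative breast cancer line that lacks epithelial cadherin and invades readily. MRCKα is encoded by CDC42BPA and MRCKβ by CDC42BPB. The genes described are those with 100 or more expected counts in at least 1 of these 2 libraries, which held for 10171 of the 17064 genes of the deposited table, and the ratio is the FPKM (fragments per kilobase of transcript, scaled to the reads of the library) in MRCKα KO over that in MRCKβ KO. The series has 6 libraries of the same line in 4 genotypes, namely the CDC42BPA knockout (1 library), the CDC42BPB knockout (1), the double knockout of both genes (DKO 1 and DKO 2) and the vector control (vector 1 and vector 2). All cells carried a lentiviral CRISPR-Cas9 vector, which was empty in the vector controls, and were kept as drug-selected pools with no clone picked. The DKO libraries were made with different guide sets, and the sources used here do not say which guide the single knockouts received.

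MRCKα and MRCKβ are serine/threonine kinases that bind the small GTPase CDC42. Like the related ROCK kinases, they promote phosphorylation of the myosin II light chain and so the contraction of actomyosin. In tumour cells these kinases are known for their part in movement through matrix, and MRCKα and MRCKβ are close relatives of each other. A direct comparison of the 2 single knockouts asks whether the cells that lost either kinase carried different RNA, without reference to a control.

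The 2 transcriptomes were close to each other. The median log2 ratio was 0.02 over the 10171 genes, 73.0% of the genes lay within 1.2-fold and 95.9% within 1.5-fold. Only 76 genes (0.747%) reached 2-fold, of which 24 (0.236%) were higher in MRCKα KO and 52 (0.511%) were higher in MRCKβ KO. The genes higher in MRCKα KO included SERPINB2, CXCR4, FUT3, MMP1 and IL18, and those higher in MRCKβ KO included the secreted cystatins CST1 and CST4, NDRG1, COL6A3, ITGB4, PLAU and IL1B. Of 30 hypoxia and glycolysis genes, 29 were higher in MRCKβ KO with a median log2 ratio of -0.32, though only 1 reached 2-fold. Of 32 mitosis genes, 31 were higher in MRCKα KO with a median of 0.18 and none at 2-fold, and the 2 vector libraries differed by a median of -0.20 over the same genes. There is 1 library for each genotype, so the ratios carry no p-value of their own.

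**Figure D1:**
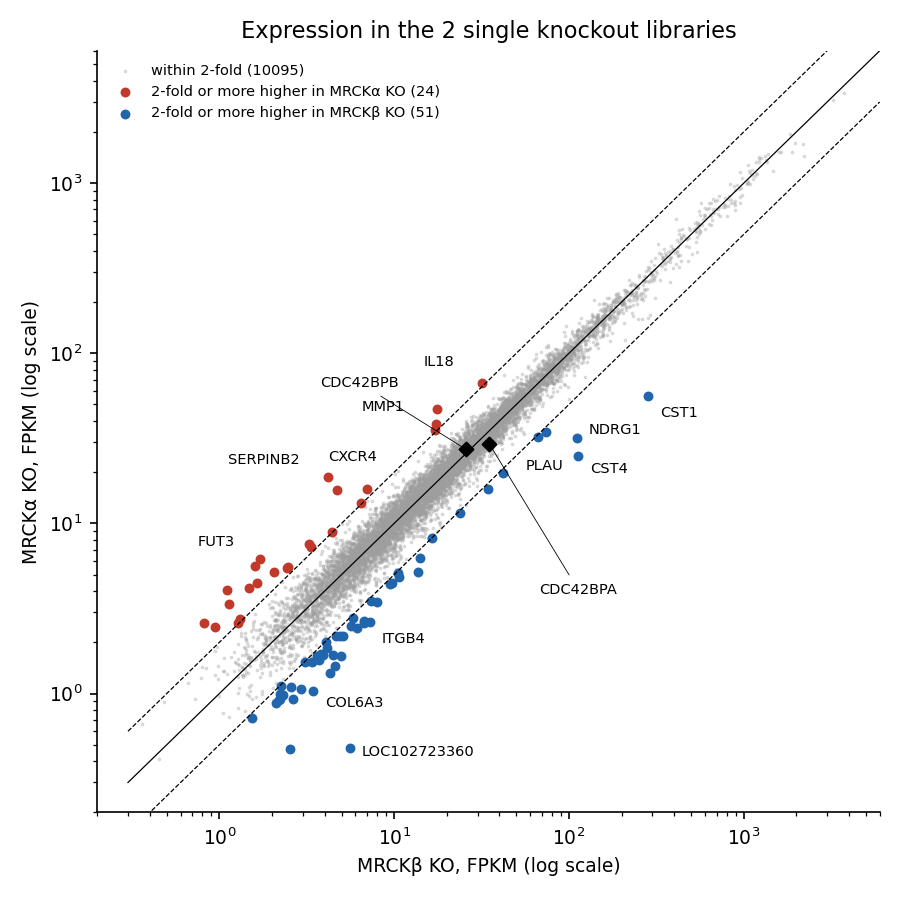
FPKM of each gene in MRCKβ KO (x axis, log scale) and in MRCKα KO (y axis, log scale), with equality as the solid line and 2-fold as dashed lines. Red and blue points are the genes at 2-fold or more, black diamonds are the targeted genes CDC42BPA and CDC42BPB, and MTPN, at an FPKM of 0 in MRCKα KO, is not drawn, so 51 of the 52 genes higher in MRCKβ KO appear.

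The libraries held 10368422 expected counts for MRCKα KO and 10632556 for MRCKβ KO, within the 10349898 to 10657857 of the series, and the 10171 genes took 98.9% and 98.8% of these counts. Of the 18 listed markers of MDA-MB-231 cells, 17 were among the genes described, and their summed FPKM ran from 4239 to 5091 over the 6 libraries. No marker of HEK293T, the line used to package virus, reached 100 counts in either single knockout. The 12 of its 15 markers that were listed summed to 6.66 FPKM in MRCKα KO and 4.29 in MRCKβ KO, the highest and lowest of the 6 libraries. With 10 counts as the limit, 6 of 7 markers were higher in MRCKα KO, with a median log2 ratio of 1.03. At such low counts a marker could pass through the library where it was high, so large ratios were partly built in. Of the 12 luminal breast markers 4 reached the limit, and of the 12 leukocyte and endothelial markers 2 did, mainly CD68. Of the 12 fibroblast markers, 3 reached it, namely PDGFRB, S100A4 and COL1A1, and all 3 were higher in MRCKβ KO. Their median log2 ratio was -0.82, against 1.47 for DKO 1 over DKO 2 and 1.71 for vector 1 over vector 2. With 10 counts as the limit, 3 fibroblast markers were higher in MRCKα KO and 3 in MRCKβ KO, with a median of 0.01. The 12 summed to between 49.7 and 294 FPKM over the libraries, most of it S100A4, which MDA-MB-231 cells express themselves. In bulk RNA, fewer cells of a kind and less RNA per cell cannot be told apart, and the part of any other cell type in the results was not tested.

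The targeted genes were transcribed in all libraries. CDC42BPA (chromosome 1, 226989865 to 227318474, minus strand, GRCh38) had an FPKM of 29.4 in MRCKα KO and of 34.9 in MRCKβ KO, with DKO at 28.3 and 26.1 and vector at 36.4 and 23.3 (replicate 1 first, here and below). CDC42BPB (chromosome 14, 102932379 to 103057462, minus strand) had an FPKM of 27.3 in MRCKα KO and of 25.7 in MRCKβ KO, with DKO at 23.4 and 23.5 and vector at 30.3 and 29.1. The 3 libraries in which CDC42BPB was targeted were thus the 3 lowest for it, by a small margin, whereas for CDC42BPA the lowest library was vector 2. Between the single knockouts the log2 ratio was -0.25 for CDC42BPA, with a 95% exact counting interval of the count ratio from -0.37 to -0.22, and 0.09 for CDC42BPB, with an interval from -0.03 to 0.15. These intervals cover counting error only. Neither kinase was 2-fold higher where the other had been targeted, and an RNA level says nothing about the protein that was left.

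The third MRCK, CDC42BPG, had 5 counts in MRCKα KO and 10 in MRCKβ KO and was not among the genes described. ROCK1 had an FPKM of 36.7 in MRCKα KO and 29.7 in MRCKβ KO, with 32.1 and 21.95 in the DKO libraries, while ROCK2 had 22.6 and 23.7 in the single knockouts and 26.5 and 26.3 in DKO. Of the 17 expressed members of the MRCK, ROCK and related kinase list, none reached 2-fold, 7 were higher in MRCKα KO and 10 in MRCKβ KO, and the median log2 ratio was -0.06. The kinase with the largest gap was MYLK, the myosin light chain kinase, with a log2 ratio of -0.64. Its DKO values of 8.30 and 5.11 and vector values of 9.24 and 4.49 spread as widely. None of the 15 expressed genes of myosin II and its phosphatase reached 2-fold either (median -0.02), and MYO18A, an unconventional myosin at 21.8 and 33.5, had the largest gap.

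Other genes of the contractile system were as close between the knockouts. The medians were -0.03 for 36 genes of actin nucleation and filaments, -0.05 for 28 targets of the actin-sensing factors SRF and MRTF, and -0.03 for 20 targets of YAP and TEAD, with no gene of these lists at 2-fold. ANKRD1, a YAP target, was higher in MRCKα KO at 614 than in MRCKβ KO at 408, and lay at 448 and 227 in DKO. For SRF and MRTF targets 21 of 28 genes were higher in MRCKβ KO, though each by a small amount.

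Fewer genes differed by 2-fold between the single knockouts than between replicate libraries of 1 genotype. Over the same genes DKO 1 and DKO 2 differed by 2-fold at 124 genes (1.22%), and vector 1 and vector 2 at 252 genes (2.48%). The robust SD of the log2 ratio, which is scaled from the median absolute deviation, was 0.23 between the single knockouts, 0.21 within DKO and 0.31 within vector, so by this measure the single knockouts were slightly wider apart than the DKO pair and closer than the vector pair. A fit of all 6 libraries in 4 genotypes with edgeR's quasi-likelihood test, in which the single libraries are assumed to vary like the DKO and vector pairs, called 0 of the 13764 genes tested (0%) at an adjusted p under 0.05, and the lowest adjusted p was 1. On the same libraries limma called 0 genes and DESeq2 called 1, MTPN, which was listed at 0 counts in the other 5 libraries. At an unadjusted p under 0.05 this fit held 213 of the 10171 genes (2.09%), of which 71 were higher in MRCKα KO and 142 in MRCKβ KO. Such p-values measure the spread between these libraries alone. The edgeR fit had little power for small differences. When run on simulated data, where 200 genes had been altered, its sensitivity was 20% at 2-fold but 85% at 4-fold. It also made 4 false calls in that simulation. The simulation gave each gene the same mean in all groups, apart from the 200 altered genes, so the sensitivity may not hold here. The lack of calls therefore does not show that differences of 2-fold or more were absent. Every difference that follows is a difference between 2 libraries.

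Most genes at 2-fold were genes of low count. Of the 76, 52 had 100 counts in only 1 of the 2 libraries, and 58 lay in the fifth of genes with the lowest mean count, from 65.5 to 215 counts. Among the 9768 genes with 100 counts in both libraries, 6 were 2-fold higher in MRCKα KO and 18 in MRCKβ KO. The counting interval lay wholly past 2-fold for 6 genes higher in MRCKα KO and 12 higher in MRCKβ KO. For 17 of the 24 and for 28 of the 52 the gap between the single knockouts was larger than the gap within DKO and the gap within vector. These genes were picked for a large gap between the single knockouts, so a larger gap there was partly built into the choice. At the limit itself, C10orf10 entered with 100 counts in MRCKβ KO against 31 in MRCKα KO, and GDAP1 with 100 in MRCKα KO against 69 in MRCKβ KO, while ZNF213, at 81 and 99.97 counts, stayed just outside.

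SERPINB2 had the highest ratio in favour of MRCKα KO. It encodes plasminogen activator inhibitor 2, an inhibitor of urokinase, and lies on chromosome 18 from 63871692 to 63903890 on the plus strand. Its FPKM was 18.9 in MRCKα KO (375 counts) against 4.18 in MRCKβ KO (85 counts), with DKO at 14.98 and 17.7. The log2 ratio was 2.17, with a counting interval from 1.83 to 2.53. MRCKβ KO was thus the low library of these 4, and both DKO libraries lay near MRCKα KO. The vector libraries stood at 3.14 and 30.6, on either side of all 4, so that the gap within vector was larger than the gap between the knockouts.

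CXCR4, the receptor of the chemokine CXCL12, had an FPKM of 15.6 in MRCKα KO against 4.70 in MRCKβ KO, with DKO at 10.6 and 2.83 and vector at 4.86 and 5.23. MRCKα KO was the highest of the 6 libraries, and DKO 1 was above all of the remaining 4. FUT3, a fucosyltransferase of Lewis antigen synthesis, had 6.20 in MRCKα KO and between 0.98 and 2.31 in the other 5 libraries, a log2 ratio of 1.86 over MRCKβ KO with an interval from 1.37 to 2.35. MUSK, a receptor kinase of the neuromuscular junction, had 3.36 in MRCKα KO and between 0.91 and 1.62 in the others. For FUT3 and MUSK the MRCKα KO library thus stood alone, though MUSK rested on 116 and 41.7 counts. MYCT1, at 5.62 and 1.60, had a smaller log2 ratio in counts (1.16) than in FPKM (1.81), which divides by a transcript length estimated in each library.

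MMP1, the interstitial collagenase (chromosome 11, 102789920 to 102798160, minus strand), had an FPKM of 38.5 in MRCKα KO against 17.4 in MRCKβ KO, with DKO at 33.4 and 11.2. The vector libraries were at 11.7 and 14.1, below MRCKα KO and DKO 1 and beside DKO 2. IL18, a cytokine of the interleukin 1 family, lies on the same chromosome and had 67.1 in MRCKα KO against 31.6 in MRCKβ KO, with DKO at 35.6 and 10.9 and vector at 30.8 and 16.4. MRCKα KO was the highest library for IL18, and DKO 2 the lowest. EHF, an epithelial ETS factor, was at 13.1 and 6.44 in the single knockouts, 11.02 and 5.03 in DKO, and 4.56 and 4.91 in vector. In CXCR4, MMP1 and EHF the order of the 4 knockout libraries began alike, with MRCKα KO first and DKO 1 second, and ended with DKO 2 last.

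KRTAP2-3, a hair keratin-associated protein, was at 47.3 in MRCKα KO against 17.6 in MRCKβ KO, with DKO at 29.9 and 68.8 and vector at 20.9 and 37.2. It shared 39.7% of its stretches of 50 bases with other genes, the most with KRTAP2-4, so its ratio is uncertain, like those of the overlapping genes below. PLEKHA7, a protein of adherens junctions, was at 5.52 and 2.48 in the single knockouts, 4.57 and 2.60 in DKO, and 3.29 and 1.91 in vector. RPP40, a subunit of ribonuclease P, was at 16.0 and 6.98, with 10.6 and 14.4 in DKO and 7.93 and 16.3 in vector. DOK3, an adaptor of immune receptors, had a log2 count ratio of 1.22, from 109 counts in MRCKα KO and 48 in MRCKβ KO, with FPKM values of 3.39 and 3.37 in DKO and 2.77 and 4.02 in vector. The DKO libraries were nearly equal for DOK3 and apart for the others.

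In the other direction, CST1 and CST4 had the highest FPKM in MRCKβ KO of the genes at 2-fold. They encode cystatins SN and S, secreted inhibitors of cysteine proteases, and lie beside each other on the minus strand of chromosome 20 (CST1 from 23747553 to 23751268, CST4 from 23685640 to 23689040). The coding sequences have 426 bases each, with 31 differences and 92.7% identity, and 110 of the 377 coding stretches of 50 bases, the length of a read, are the same in both.

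CST1 had an FPKM of 55.9 in MRCKα KO against 282 in MRCKβ KO, with DKO at 159.5 and 36.3 and vector at 213 and 7.15. CST4 had 24.9 against 112, with DKO at 56.2 and 11.3 and vector at 70.9 and 3.83. Both genes had the same order of libraries, from MRCKβ KO down through vector 1, DKO 1, MRCKα KO and DKO 2 to vector 2. The log2 ratios were -2.34 for CST1, with an interval from -2.49 to -2.19, and -2.17 for CST4, from -2.41 to -1.94. The gap was as large in the reads of both genes combined, since their summed counts were 622 in MRCKα KO and 3121 in MRCKβ KO, a log2 ratio of -2.29. The same genes differed by 2.14 and 2.32 on the log2 scale between DKO 1 and DKO 2 and by 4.90 and 4.21 between vector 1 and vector 2.

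NDRG1, a stress- and hypoxia-responsive gene, had the most counts of all genes at 2-fold, with 1032 in MRCKα KO and 3688 in MRCKβ KO. Its FPKM was 31.8 and 111 in these libraries, 54.9 and 29.9 in DKO, and 83.4 and 23.9 in vector. ITGB4, the β4 integrin of hemidesmosomes, was at 2.62 and 7.23 in the single knockouts, 2.94 and 2.20 in DKO, and 7.15 and 3.55 in vector. For ITGB4, MRCKβ KO and vector 1 were the 2 highest libraries, and both DKO libraries lay beside the level of MRCKα KO.

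PLAU, PDGFRB and JUP followed a similar order. PLAU, which encodes urokinase, was at 32.4 and 66.6 in the single knockouts, 53.4 and 34.8 in DKO, and 73.9 and 40.8 in vector. PDGFRB, a receptor of platelet-derived growth factor, was at 2.19 and 4.65, with 3.15 and 1.14 in DKO and 5.90 and 1.35 in vector. JUP, plakoglobin of desmosomes, was at 6.23 and 14.1, with 8.64 and 4.44 in DKO and 13.7 and 3.80 in vector. Of the 52 genes, 42 were higher in vector 1 than in vector 2 and 33 were higher in DKO 1 than in DKO 2, against 51.2% and 47.6% of all 10171 genes. Between the vector libraries 23 of the 52 were themselves 2-fold apart, and between the DKO libraries 13 were. Genes higher in MRCKα KO did not show this, since 10 of the 24 were higher in vector 1 and 13 in DKO 1.

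The same order of libraries was present, though weakly, over all genes. The log2 ratio of MRCKα KO over MRCKβ KO had a correlation of 0.31 with that of vector 2 over vector 1, and of 0.15 with that of DKO 2 over DKO 1, across the 10171 genes. The vector and DKO ratios had a correlation of 0.44 with each other. These are descriptions across genes, which are not replicates, and each pair of ratios shares no library. By these correlations MRCKβ KO leaned to the side of vector 1, and MRCKα KO to that of vector 2.

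COL6A3 went another way. It encodes the α3 chain of collagen VI and was at 1.04 in MRCKα KO (97 counts) against 3.42 in MRCKβ KO (350 counts), with DKO at 2.85 and 3.01 and vector at 2.94 and 2.25. DKO 1, DKO 2 and vector 1 thus lay close to MRCKβ KO, and vector 2 was lower. MRCKα KO was below all of them, with a log2 ratio over MRCKβ KO of -1.72 and a counting interval from -2.15 to -1.49. The other collagen VI chains leaned the same way without reaching 2-fold, COL6A1 at 16.6 and 29.7 and COL6A2 at 11.3 and 17.4 in the single knockouts, with 22.7 and 29.1 and 14.2 and 15.3 in DKO. BCL3, a nuclear partner of NF-κB, was at 4.83 and 10.7, with 8.73 and 8.81 in DKO and 9.29 and 7.35 in vector. PCBP3, an RNA-binding protein, was at 2.66 and 6.74, with 5.95 and 6.30 in DKO and 7.36 and 8.53 in vector. In these 3 genes, COL6A3, BCL3 and PCBP3, MRCKα KO was the lowest of all 6 libraries and neither replicate pair differed by 1.5-fold.

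IL1B, the inflammatory cytokine interleukin 1β, was lowest in MRCKα KO at 2.60, with 6.71 in MRCKβ KO, and highest in DKO at 9.08 and 14.8, while the vector libraries had 4.61 and 8.98. AMPH, amphiphysin, had 1.69 and 4.48, with 6.87 and 6.55 in DKO and 4.07 and 1.38 in vector. LCP1, an actin-bundling plastin, had 1.07 and 2.92, with 2.22 and 3.67 in DKO and 2.20 and 1.21 in vector. These 3 genes rested on 40 to 59 counts in MRCKα KO.

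**Figure D2:**
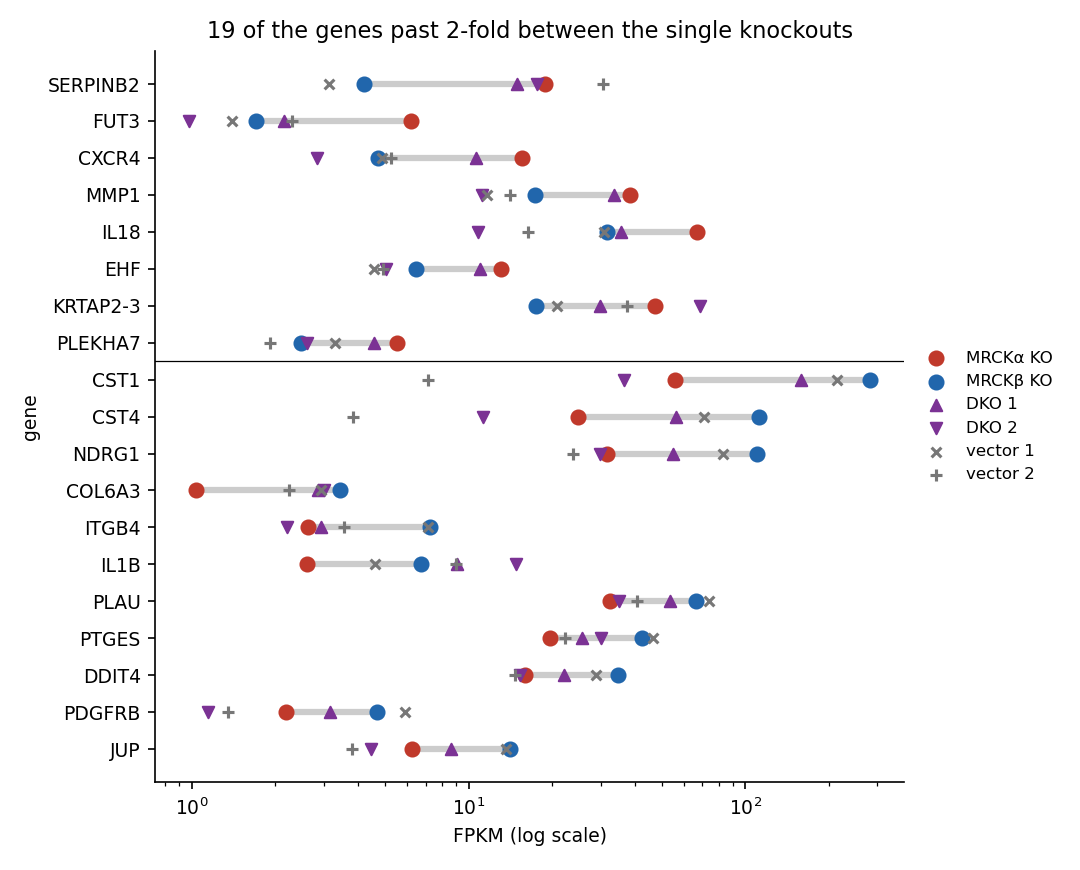
FPKM (x axis, log scale) of 19 genes at 2-fold or more in the 6 libraries, 8 higher in MRCKα KO above the line and 11 higher in MRCKβ KO below it, with a grey bar from MRCKα KO to MRCKβ KO. Vector 1 sits near MRCKβ KO for genes such as ITGB4 and JUP, and the 3 COL6A3 values of DKO 1, DKO 2 and vector 1 sit together beside MRCKβ KO.

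Several of the largest ratios belonged to overlapping genes. Of the 70 genes at 2-fold that could be matched to GENCODE v29, 13 (18.6%) shared at least 20% of their 50-base stretches with another gene, against 523 of 9933 matched genes (5.27%). MTPN was listed at 0 counts in MRCKα KO and 322 in MRCKβ KO, which is at least 107-fold lower against the 3 counts that a count of 0 allows. It was also at 0 in the 4 remaining libraries, and the sum with its overlapping gene LUZP6 was 2420 in MRCKα KO and 2568 in MRCKβ KO. Of the 50-base stretches of MTPN, 3.40% were shared, so it is not among the 13. PTCD1 was 2-fold higher in MRCKα KO and its readthrough ATP5J2-PTCD1 2-fold higher in MRCKβ KO, and the log2 ratio of their summed counts was 0.01. The log2 ratios of the sums were also small for ASB3 with GPR75-ASB3 (-0.06), TMEM183A with TMEM183B (0.05), GALNT4 with POC1B-GALNT4 (0.09), GPRASP2 with ARMCX5-GPRASP2 (0.16) and GCOM1 with MYZAP and POLR2M (0.01). For GPR89B, 2-fold higher in MRCKα KO with 73.1% of its stretches shared, the sum with GPR89A had a log2 ratio of 0.30. LOC102723360, at 0.48 and 5.56, with 0.39 and 4.85 in vector, has no match in GENCODE and was not examined further. How the counting split reads between such genes was not tested, and their ratios are uncertain.

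The DKO libraries had lost both kinases, so their place relative to the single knockouts was recorded for each gene. For the 24 genes higher in MRCKα KO, both DKO libraries lay between the single knockouts at 13, and the median position of their mean was 0.43, on a scale of 0 at MRCKβ KO and 1 at MRCKα KO. For the 52 genes higher in MRCKβ KO, both lay between at 22, and the median position was 0.56. Over all 10171 genes both lay between at 19.3%, both above at 18.6% and both below at 15.4%. Genes picked for a high value in 1 library tend to lie lower in any other, so a position between the extremes was built into the choice of genes, and no test was made. On this scale the mean of the DKO libraries lay near the middle for both sets.

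The DKO libraries did not sit together, however. DKO 1 had 27 genes at 2-fold from MRCKα KO and 19 from MRCKβ KO, whereas DKO 2 had 145 and 194. For the genes higher in MRCKβ KO the median position was 0.50 for DKO 1 and 0.75 for DKO 2, and DKO 2 was nearer to MRCKα KO than to MRCKβ KO at 30 of the 52. For the genes higher in MRCKα KO it was 0.55 for DKO 1 and 0.39 for DKO 2. FABP5, a fatty acid-binding protein at 35.6 in MRCKα KO and 17.1 in MRCKβ KO, lay far below both in DKO 2 with 1.05, against 21.7 in DKO 1.

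No gene had both DKO libraries 2-fold above or 2-fold below both single knockouts. At 1.5-fold, 3 genes were above and 2 below. EGR1, an immediate early factor, led with 23.2 and 18.1 in MRCKα KO and MRCKβ KO against 37.5 and 70.8 in DKO, and 12.5 and 6.81 in vector. The others above were IGFN1 (1.62 and 1.46 against 2.47 and 5.34) and SLC2A13 (2.32 and 2.18 against 3.52 and 3.91). In vector IGFN1 had 1.27 and 11.95, so vector 2 was above both DKO libraries, and SLC2A13 had 1.47 and 3.09. AMPH and CDC14A came next, and ICAM1, an adhesion molecule induced by NF-κB, was at 17.1 and 18.5 against 25.6 and 29.9. Below were the readthrough NME1-NME2 (16.8 and 13.9 against 7.33 and 7.61), whose vector values were 7.56 and 7.19, and a CC2D2B entry. COL9A2, INHBB and C11orf54 followed. EGR1 and ICAM1 were lowest in vector and highest in DKO, with the single knockouts between.

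The 23 lists of functionally related genes were described by their medians, beside the median of 0.02 over all genes. Hypoxia and glycolysis genes stood farthest toward MRCKβ KO, with a median of -0.32, and 29 of the 30 were higher in MRCKβ KO. This list holds targets of the hypoxia-inducible factors and enzymes of glycolysis. After NDRG1, its largest gaps were CA12, a carbonic anhydrase, at 1.28 and 2.53, SLC2A3, a glucose transporter, at 4.80 and 8.73, EPAS1, which encodes HIF-2α, at 17.9 and 29.8, and P4HA1, a collagen prolyl hydroxylase, at 23.2 and 35.4. CA12 was at 2.44 and 1.12 in DKO and 2.12 and 1.00 in vector, and SLC2A3 at 7.97 and 6.94 in DKO and 8.10 and 6.43 in vector. Smaller gaps ran to the enzymes themselves, with log2 ratios of -0.47 for ALDOA, -0.31 for PGK1 and -0.19 for LDHA, and ADM alone was higher in MRCKα KO (0.18). The DKO mean had a list median of 0.05 over MRCKα KO and -0.30 over MRCKβ KO, so by the median DKO lay with MRCKα KO. Single genes differed, as SLC2A3 in both DKO libraries and CA12 in DKO 1 lay nearer to MRCKβ KO. The summed FPKM of the list was 5986 in MRCKα KO and 7234 in MRCKβ KO, with 6255 and 6144 in DKO. In vector it was 7052 and 7366, beside MRCKβ KO. The same list had a median of 0.18 for DKO 1 over DKO 2 and 0.17 for vector 1 over vector 2.

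Matrix and adhesion genes leaned the same way. For 32 collagens, laminins and matrix proteins the median was -0.26, with 25 higher in MRCKβ KO, and LOXL4, a lysyl oxidase, came after COL6A3 with a log2 ratio of -0.97. The list medians within the replicate pairs were 0.05 for DKO 1 over DKO 2 and -0.05 for vector 1 over vector 2. For 22 integrin and focal adhesion genes the median was -0.19, with 19 higher in MRCKβ KO, and it was 0.10 within DKO and 0.15 within vector. Besides ITGB4 the largest gaps of these were DDR1, a collagen receptor, at 5.85 and 11.3, ITGB3 at 1.08 and 2.02 and ITGA2, the α2 chain of a collagen-binding integrin, at 14.8 and 23.2. The matrix proteases and their inhibitors held genes at 2-fold in both directions (median -0.19), as SERPINB2 and MMP1 were 2-fold higher in MRCKα KO and PLAU 2-fold higher in MRCKβ KO. Urokinase was thus higher in 1 knockout and its inhibitor in the other, with the vector pair split likewise, at 73.9 and 40.8 for PLAU and 3.14 and 30.6 for SERPINB2.

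Stress and lipid genes were also on the side of MRCKβ KO. Of 27 ATF4 and amino acid stress genes 23 were higher there (median -0.20), led by DDIT4, an inhibitor of mTORC1 signalling, at 15.9 and 34.6, SESN2 at 3.35 and 5.41 and CHAC1 at 10.97 and 17.6. DDIT4 was at 22.1 and 15.4 in DKO and 28.98 and 14.8 in vector, and the list medians were 0.11 within DKO and 0.13 within vector. Of 31 genes of cholesterol and fatty acid synthesis 27 were higher there (median -0.16), among them SREBF1, the master factor of lipid synthesis, at 18.6 and 29.3. Lipid genes differed more within the replicate pairs than between the knockouts, with list medians of 0.41 for DKO 1 over DKO 2 and 0.64 for vector 1 over vector 2. Of 20 genes of MHC class I and peptide loading, 18 were higher in MRCKβ KO (median -0.21), among them PSMB9, a subunit of the immunoproteasome, at 9.76 and 13.6. PSMB9 was at 9.59 and 10.8 in DKO and 10.3 and 14.7 in vector, so DKO 1 was its lowest library. The list median was -0.10 for DKO 1 over DKO 2 and -0.27 for vector 1 over vector 2, a wider gap within vector than between the knockouts.

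Only the mitosis and DNA replication lists stood on the side of MRCKα KO. Of 32 genes of mitosis and cytokinesis, 31 were higher in MRCKα KO, with a median of 0.18, and CIT was the exception (-0.06). MKI67, the proliferation marker Ki-67, was at 82.2 and 58.3 in the single knockouts, 72.9 and 79.2 in DKO, and 68.7 and 65.4 in vector. DLGAP5, a spindle protein, was at 84.6 and 65.3, BUB1B, a spindle checkpoint kinase, at 31.1 and 24.3, and CCNA2, cyclin A2, at 72.1 and 57.0. Of 29 DNA replication genes 24 were higher in MRCKα KO (median 0.14), with POLE2, a subunit of DNA polymerase epsilon, at 33.2 and 24.7. Mitosis genes in DKO had medians of -0.0046 over MRCKα KO and 0.19 over MRCKβ KO, so DKO lay with MRCKα KO and MRCKβ KO was the low library. This place of DKO did not hold for every list. Its medians over MRCKα KO and MRCKβ KO were 0.15 and -0.04 for collagens and matrix proteins, nearer to MRCKβ KO. They were 0.11 and -0.11 for integrin genes, midway, and -0.24 and -0.38 for lipid genes, below both. Within the replicate pairs the list medians were -0.10 for DKO 1 over DKO 2 and -0.20 for vector 1 over vector 2, which is a gap as large within vector as between the knockouts. For DNA replication genes these medians were -0.15 and -0.20.

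Inflammatory lists did not separate the single knockouts as groups. For 24 NF-κB and inflammation genes the median was -0.02, with IL1B, PTGS2 (2.42 and 4.68) and CSF1 (33.2 and 63.7) higher in MRCKβ KO and CXCL8 (28.5 and 19.6) and TNFAIP3 (4.32 and 3.11) higher in MRCKα KO. The DKO mean lay above both knockouts, by list medians of 0.40 and 0.34, and CXCL8 had 36.5 in DKO 1 and 115 in DKO 2. The list median was -0.25 for DKO 1 over DKO 2 and -0.43 for vector 1 over vector 2, which is as wide as the shift of DKO. Of 32 interferon response genes the median was -0.07, with IFITM1 at 11.6 and 23.9 and IRF1 at 10.6 and 17.0. The median was -0.11 for 18 immediate early genes and -0.18 for 17 feedback genes of ERK signalling. The remaining medians were -0.17 for EGFR ligands and growth factor receptors, -0.02 for EMT and junction genes, -0.19 for TGF-β, activin and BMP genes (-0.05 with 10 counts as the limit), -0.12 for WNT genes and -0.08 for NRF2 antioxidant genes. In the same order of lists, the medians of vector 1 over vector 2 were 0.12, 0.34, 0.33, 0.10 and -0.43. Those of DKO 1 over DKO 2 were 0.06, 0.23, 0.03, 0.03 and 0.0015. For the EMT, TGF-β and NRF2 lists the gap within vector was wider than between the knockouts. In these lists LTBP1 (1.57 and 3.72), a carrier of latent TGF-β, FZD8 (2.17 and 4.87), a WNT receptor, CLDN7 (4.41 and 9.51), a claudin, and AKR1C1 (4.44 and 9.74), an aldo-keto reductase, were 2-fold higher in MRCKβ KO. Their DKO values were 2.04 and 2.79 for LTBP1, 3.08 and 7.05 for FZD8, 5.60 and 3.02 for CLDN7, and 5.78 and 2.03 for AKR1C1. The vector values were 2.59 and 2.01 for LTBP1, 2.96 and 5.04 for FZD8, 5.66 and 2.40 for CLDN7, and 7.83 and 6.60 for AKR1C1. Of 4 expressed neighbours of the 9p21 locus, none reached 2-fold (median -0.09).

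Position in the genome, which the choice of genes did not use, went with the ratio. In windows of 10 Mb with at least 15 of the genes, 245 in all, the median log2 ratio ran from -0.21 to 0.38, and 90% of the windows lay between -0.11 and 0.19. The 3 highest windows were neighbours on chromosome 11, from 100 to 130 Mb (GRCh38), with medians of 0.38, 0.32 and 0.29, and of the 11 windows at 0.20 or more, 3 were on chromosome 11 and 5 on chromosome 3. From 100 to 110 Mb on chromosome 11 all 23 genes were higher in MRCKα KO. Windows also shifted within the replicate pairs, and by more. For chromosome 18 from 30 to 40 Mb, the median was 0.60 for DKO 1 over DKO 2. It was 0.58 for vector 1 over vector 2 and -0.0021 between the single knockouts. Regional shifts were thus not particular to this comparison. The windows were picked after their values were seen, and neighbouring genes are not independent, so no test was made.

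Taking chromosome 11 from 90 Mb to its end, 126 of 142 genes were higher in MRCKα KO, with a median of 0.30, against 52.9% of all placed genes. MMP1 and IL18 lie here and had the largest ratios, followed by ACAD8, a mitochondrial dehydrogenase (12.5 and 6.82), and ALKBH8, a tRNA methyltransferase (7.80 and 4.68), while SLC37A2 (12.1 and 17.3) had the lowest. Relative to MRCKβ KO the medians of the same genes were 0.18 in DKO 1, 0.00 in DKO 2, 0.07 in vector 1 and 0.07 in vector 2. MRCKα KO thus stood above all the others over this stretch, and the median of vector 1 over vector 2 was 0.005. On chromosome 3 from 30 to 60 Mb, 156 of 182 genes were higher in MRCKα KO (median 0.25), but here MRCKβ KO was the low library together with vector 1, since DKO 1, DKO 2 and vector 2 had medians of 0.21, 0.34 and 0.27 over MRCKβ KO and vector 1 had 0.00. On chromosome 8 from 140 Mb on, 50 of 60 genes were higher in MRCKβ KO (median -0.21), and the same stretch had medians of 0.32 for DKO 1 over DKO 2 and 0.32 for vector 1 over vector 2. Whether the copy number of these stretches differed between the pools was not tested.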

How the data were processed

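RNA of MDA-MB-231 pools was sequenced as single-end reads of 50 bases, 1 library for each single knockout. The authors had expected counts estimated per gene (not normalized, not whole) and FPKM computed by the sequencing provider from reads, transcript length and library total, as deposited. The submitters' processing notes name Bowtie2, HISAT, RSEM and GRCh38.p11, with no versions or roles. The count of a gene absent from a library file was taken as 0.

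Genes with at least 100 expected counts in MRCKα KO or MRCKβ KO were described by the log2 FPKM ratio, and 2-fold was the limit used in the study. An FPKM of 0 was set to the value of 3 counts. Exact 95% binomial intervals of the count ratio and the limit of 3 counts cover counting error only, since reads carry no molecular identifiers. A gene's own counts in the 2 libraries set the width of its interval, and the library totals only scale the ratio. edgeR 4.0.16 (glmQLFit, glmQLFTest, TMM, filterByExpr, rounded counts, Benjamini-Hochberg) was fitted to all 6 libraries, with DESeq2 1.42.0 and limma 3.58.1 as alternatives, and the fit was tested on simulated data. Nothing states that replicate libraries came from separate cultures beyond separate transductions or guides. Gene positions and stretches of 50 bases came from GENCODE v29 on GRCh38, matched by symbol for 9939 and 9933 of the 10171 genes.

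The genes and lists were chosen with earlier results of these data known. Named genes were the targeted genes and ROCK kinases, the 15 highest and 15 lowest ratios, up to 4 genes of each list with the largest ratio and all list genes past 2-fold, and the 5 genes farthest above and below in DKO, though not every one is named. IL18, EHF, FABP5, JUP, BCL3, PCBP3, ICAM1, ALDOA, PGK1, LDHA, ADM, CIT and the genes and windows of the chromosome regions were chosen after their values were seen.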

Additional observations from a re-analysis of the deposited data

How the results depend on the processing

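The number of genes at 2-fold, 76 (24 higher in MRCKα KO and 52 in MRCKβ KO), depended on the count limit. It was 150 (57 and 93) with 50 counts in at least 1 library, 31 (10 and 21) with 200, 10 (3 and 7) with 500, 24 (6 and 18) with 100 in both, and 1311 (656 and 655) with no limit and both FPKM values above 0. It was 37 (15 and 22) with a pseudocount of 1 on FPKM and 18 (6 and 12) where the counting interval had to lie wholly past 2-fold. With 2 alternatives chosen after seeing the data, it was 45 (17 and 28) where the gap had to exceed both replicate gaps, and 57 (19 and 38) without genes that share 20% of their stretches or have no match. More genes were higher in MRCKβ KO than in MRCKα KO under each setting named except that with no limit. Scaling by TMM, library totals or DESeq2's size factors, a pseudocount of 0.1 and centring on the median gave 70 to 84 genes.

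The fit with a pooled spread called 0 genes under 8 of its 10 alternatives and 1 gene, MTPN, under the other two, namely DESeq2 (adjusted p = 0.0245) and the replicate block (adjusted p = 0.0144). MTPN shares its locus with LUZP6. The labels' numbers 1 and 2 mark separate transductions or guides and were not taken as pairs. Leaving out each DKO or vector library gave 0 calls, from 103 to 487 genes at an unadjusted p under 0.05, against 213 with all. The median position of DKO moved with the library used, from 0.39 without DKO replicate 1 to 0.55 without DKO replicate 2 for genes higher in MRCKα KO, and from 0.50 without DKO replicate 2 to 0.75 without DKO replicate 1 for genes higher in MRCKβ KO. All 23 list medians kept their sign under TMM-scaled counts and with 10 counts as the limit, where those of collagens and matrix proteins (-0.15 against -0.26) and of TGF-β, activin and BMP genes (-0.05 against -0.19) shrank most.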
